A study of Mus musculus with 17 samples.

Results

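Complement and blood coagulation are cascades of proteases that circulate as inactive precursors, and the liver is the main source of nearly all of them. The set described here held 45 mouse genes of complement, coagulation and fibrinolysis, found by gene symbol among the 52545 genes of the deposited table. All 45 were in the table, none was at 0 in any library, and all 45 passed the filter on low values, so every member was tested. They were divided by the cell that is the usual source of the protein in liver: 17 complement genes and 20 coagulation and fibrinolysis genes made by hepatocytes (37 in all), 7 genes made by macrophages, and F3, tissue factor, which is made by other cells.

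Liver without tumour was taken for RNA sequencing from 17 C57BL/6J mice, all male and 32 weeks old, with 1 library per mouse. The CLDN1 mAb group (6 mice) and the Vehicle Control group (6 mice) had both been given diethylnitrosamine (DEN), a liver carcinogen, once at 100 mg/kg in week 1, and had been fed CDA-HFD. For 16 weeks the CLDN1 mAb mice received 500 µg of a monoclonal antibody that binds claudin-1 (a protein of tight junctions) by intraperitoneal injection 1 time per week, and the Vehicle Control mice received PBS by the same schedule. The Regular diet group (5 mice) had no treatment. DEN, diet and injections were given together, so that against Regular diet their parts cannot be told apart.

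In complement, the C1 complex (C1q with the proteases C1r and C1s) starts the classical pathway on bound antibody, and mannose-binding lectins with their MASP proteases start the lectin pathway. Both cleave C4 and C2, the alternative pathway adds factor B and properdin, all meet at C3, and C5 to C9 then build the membrane attack complex. In coagulation, tissue factor with factor VII, or the contact factors, lead to factor X and thrombin, which turns fibrinogen into fibrin, while antithrombin, protein C and plasmin limit or dissolve the clot. Hepatocytes secrete most of these proteins, whereas C1q, properdin, the anaphylatoxin receptors and the A subunit of factor XIII come mainly from macrophages and related myeloid cells.

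A fibrinogen and a C1q gene cluster represent both sources and are shown with their upstream sequence. The fibrinogen genes lie within 1 cluster on chromosome 3 (Fgg 83007724 to 83015049, Fga 83026076 to 83033627, Fgb 83040141 to 83049863), and the C1q genes within 1 cluster on chromosome 4 (C1qb 136880129 to 136886187, C1qc 136889804 to 136893065, C1qa 136895917 to 136898803), in build GRCm38. RefSeq (GRCm38.p6) gave a promoter for 36 of the 45 members. The lines hold the bases before the RefSeq start, 5′ to 3′ on the gene's own strand, cut where the gene model begins earlier. They are chr3:83025903-83026075 for Fga (plus strand), chr3:83049864-83050113 for Fgb (minus strand), chr3:83007474-83007723 for Fgg (plus strand), chr4:136886201-136886450 for C1qb (minus strand) and chr4:136893066-136893164 for C1qc (minus strand). The C1qb line ends at 136886201, short of the start of its gene model at 136886187. Capitals mark TTGCNNAA, a C/EBP site, and CTGGGAA, an interleukin-6 response element, in the fibrinogen promoters, and GAGGAA, the core of PU.1 sites, in the C1q promoters, on either strand.
Fga: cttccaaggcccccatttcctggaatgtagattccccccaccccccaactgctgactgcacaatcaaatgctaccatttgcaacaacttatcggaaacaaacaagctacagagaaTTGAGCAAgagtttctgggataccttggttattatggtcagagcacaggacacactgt
Fgb: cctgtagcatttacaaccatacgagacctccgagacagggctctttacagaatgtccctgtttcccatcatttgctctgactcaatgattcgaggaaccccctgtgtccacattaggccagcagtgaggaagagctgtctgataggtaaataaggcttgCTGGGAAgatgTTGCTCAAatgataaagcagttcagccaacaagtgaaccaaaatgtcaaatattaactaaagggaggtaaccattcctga
Fgg: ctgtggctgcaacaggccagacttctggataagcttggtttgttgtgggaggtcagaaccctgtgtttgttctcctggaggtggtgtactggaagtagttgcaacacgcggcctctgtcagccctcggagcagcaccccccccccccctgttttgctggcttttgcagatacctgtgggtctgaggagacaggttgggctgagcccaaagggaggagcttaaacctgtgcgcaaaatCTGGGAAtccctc
C1qb: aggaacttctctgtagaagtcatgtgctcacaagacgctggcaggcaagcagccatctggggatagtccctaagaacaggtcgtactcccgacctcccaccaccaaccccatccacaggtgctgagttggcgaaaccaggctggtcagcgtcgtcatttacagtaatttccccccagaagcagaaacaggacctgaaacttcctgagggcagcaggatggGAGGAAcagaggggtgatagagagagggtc
C1qc: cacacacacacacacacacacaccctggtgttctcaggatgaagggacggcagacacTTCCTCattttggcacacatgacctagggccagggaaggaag
Fgb held both of the hepatocyte motifs, Fga a C/EBP site, Fgg an interleukin-6 element, and both C1q promoters a PU.1 core. In the 250 bases before the RefSeq start, TTGCNNAA was found in 8 of 29 hepatocyte-made members (27.6%), 0 of 6 macrophage-made members and 9.55% of all 27025 promoters, and CTGGGAA in 5 of 29 (17.2%), 0 of 6 and 9.08%. GAGGAA was found in 2 of 29 (6.90%), 3 of 6 (50.0%) and 23.1%, and Fgb was among the 2. These matches are descriptions of the letters, without a measure of binding.

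Values are the authors' normalized counts, and raw counts per gene were not used here. The deposited totals were 35.4 to 42.8 M in CLDN1 mAb, 29.7 to 42.1 M in Vehicle Control and 48.2 to 74.6 M in Regular diet, and the 45 members held 3.60 to 4.34%, 2.41 to 4.44% and 4.42 to 5.45% of them. Regular diet replicate 1 stood apart. Its total was 74.6 M against at most 51.2 M in the other 4, and its genes with exons under 2000 bases lay a median of 0.82 above the group on the log2 scale, those from 4000 bases 0.40 below it. It was above the other 4 Regular diet mice for 30 members, below them for 9 and within their range for 6. CLDN1 mAb replicate 1 leaned the same way with gene length, less strongly (Spearman's rho -0.25 across genes, against -0.37). CLDN1 mAb replicate 3 (-0.20) and Vehicle Control replicates 2 (-0.16) and 5 (-0.13) did so too. Others leaned the opposite way, among them CLDN1 mAb replicates 5 (0.20) and 6 (0.20), Vehicle Control replicates 3 (0.13) and 6 (0.18) and Regular diet replicate 2 (0.16). The hepatocyte marker sum (10 of 12 markers, leaving out Alb, listed at 0 in all 17 libraries, and Trf, at 0 in some) had medians of 1413190.0 in CLDN1 mAb, 916584 in Vehicle Control and 2077380.0 in Regular diet. The deposited totals thus hold no Alb, and no Trf in some libraries. The shares above and the later scaling to the same total per library rest on these totals. In whole liver, fewer cells of a type and less RNA per cell cannot be told apart.

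**Figure D1:**
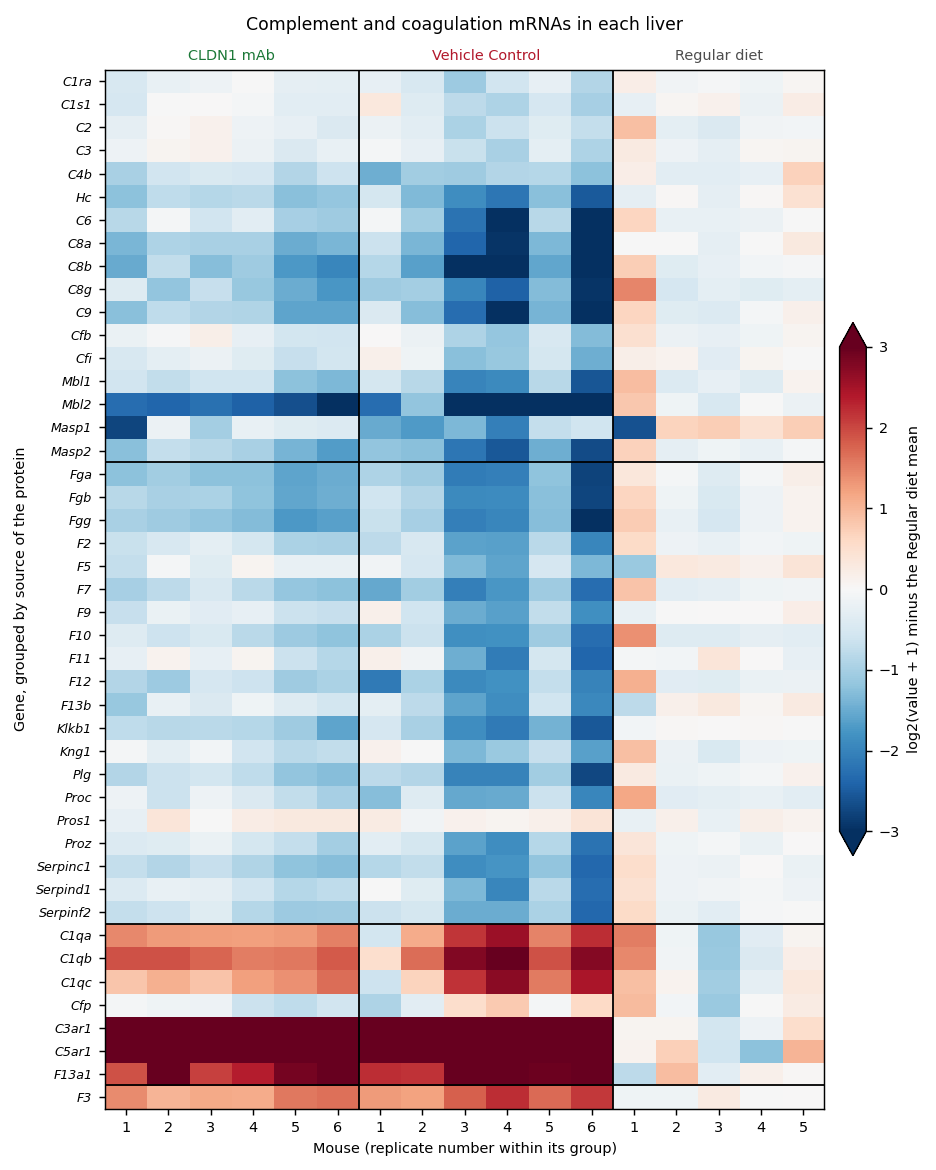
Each row is a member, each column a mouse with its replicate number, and the colour is log2(value + 1) minus the Regular diet mean of that gene. The 37 hepatocyte-made rows are mostly below 0 and the macrophage-made rows mostly above it in both DEN and CDA-HFD groups, most of all in Vehicle Control replicates 3, 4 and 6.

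Vehicle Control was compared with Regular diet first, to ask how the plasma protein cascades of the liver stood in the disease model. Of 37 hepatocyte-made members, 33 were lower and 0 higher (limma on log2(value + 1), adjusted p under 0.05 after Benjamini-Hochberg adjustment over 18624 genes), beside 20.7% of all genes tested called lower and 29.8% called higher (50.5% in either direction). Their median log2 fold change was -1.32, against 0.04 for all genes. Of 7 macrophage-made members, 6 were higher and 0 lower, with a median of 2.10, and F3 was higher. In the values as deposited, the groups did not overlap for 23 of the 37 hepatocyte-made members, all lower (10.5% of all genes), and for 3 of the 7 macrophage-made members, all higher (19.1%).

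The largest decrease was in the lectin pathway. Mbl2, one of 2 mannose-binding lectins that recognise sugars on microbes, ranged from 939 through a median of 2222 to 10472 normalized counts in Vehicle Control, against 42273, 21929.5, 17156, 23598 and 21091 in the 5 Regular diet mice. Even the highest Vehicle Control mouse, replicate 2, lay below every Regular diet mouse. The change was -3.14 ± 0.44 (log2 fold change ± SE; adjusted p = 1.34e-05), or 8.79-fold lower. Mbl1, the other lectin, fell by 1.44 (adjusted p = 0.00197), again without overlap, and Masp2, the protease that cleaves C4 and C2, fell by 1.88 (adjusted p = 2.91e-05). Exons of Masp2 overlap those of Tardbp on the opposite strand over 1817 bases, and strand was not stated, so its level is uncertain. Masp1, the partner protease, did not pass: it ranged from 675 through 1042 to 1861 in Vehicle Control, against 454, 4478, 4705, 3857 and 4635 in Regular diet (-1.32 ± 0.57, adjusted p = 0.0622). The low Regular diet value was that of replicate 1, and without that mouse Masp1 was called lower at -1.97 (adjusted p = 0.000752).

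In the terminal pathway all 6 members were called lower, beside 20.7% of all genes tested. C8b, the beta chain of C8, ranged from 1568 through 5636 to 14603 in Vehicle Control, against 44251, 20599, 22520.5, 25208 and 25782 in Regular diet. Replicates 3, 4 and 6 of Vehicle Control stood at 2606, 1944 and 1568 and the other 3 mice at 8666 to 14603, all below Regular diet (-2.54 ± 0.48, adjusted p = 0.000291, 5.82-fold lower). C9, which forms the pore, ranged from 4419 through 14659.7 to 37283 in Vehicle Control, against 78289, 39291, 38023, 48405 and 56049 in Regular diet. Its groups did not overlap, though the highest Vehicle Control mouse came close to the lowest Regular diet mouse (-2.02 ± 0.44, adjusted p = 0.000884). C8a fell by 1.99, C8g by 1.79, C6 by 1.73 and Hc, which encodes C5, by 1.61, with adjusted p from 0.000143 for Hc to 0.00403 for C6. The 3 C8 genes lie on chromosome 4 (C8a and C8b, side by side) and chromosome 2 (C8g). Per base of transcript, C8b made up 11.95 to 24.1% of the summed C8 chains in Vehicle Control and 20.9 to 25.7% in Regular diet.

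The classical pathway, the central component and the alternative pathway moved less. C4b, the fourth component, fell by 1.09 (adjusted p = 0.000242), with reads that a near-identical C4a could share. The C1 proteases C1ra and C1s1 were at -0.59 and -0.54, C2 at -0.53, Cfb (factor B) at -0.67 and Cfi (factor I, which inactivates C3b) at -0.73, with adjusted p from 0.00402 to 0.045. None of these 6 calls held with the same total per library or after quantile normalization, and C1ra, C1s1, C2, Cfb and Cfi changed sign under at least 1 of them. Without Vehicle Control replicate 3, 4 or 6 C1s1, C2, Cfb and Cfi lost the call, and so did C1s1 without Regular diet replicate 2, 3 or 5, C2 without 1 (then at -0.30), 4 or 5 and Cfb without 1 or 5. C1ra and C1s1 have near-identical copies (C1rb, C1s2), and exons of C2 and Cfb overlap the gene model Gm20547, so their levels are uncertain. C3, which all pathways cleave, was the most abundant of the complement members per kilobase and did not pass. It ranged from 219245 through 310464 to 413220.0 in Vehicle Control, against 520884, 384349, 358258, 445427 and 457309 in Regular diet. The groups overlapped, and the fitted change was -0.53 ± 0.29 (adjusted p = 0.140), with 0.10 and 0.47 under the other scalings.

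**Figure D2:**
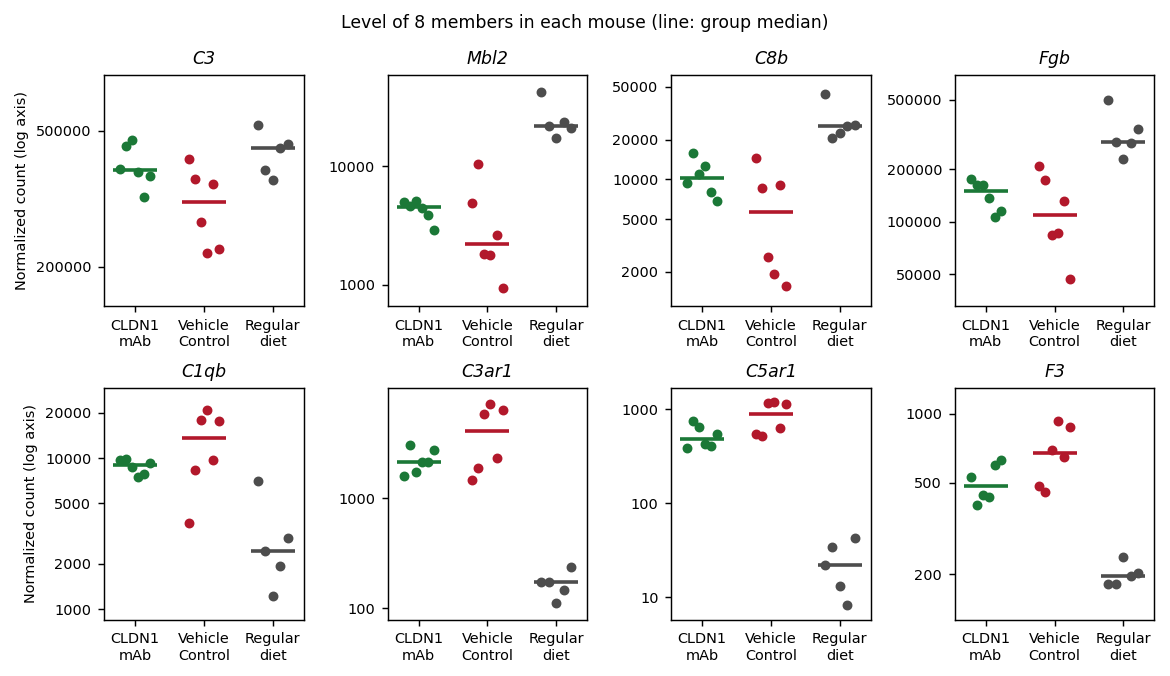
Points are mice and the line is the group median, as normalized counts on log axes that differ between panels, for 8 members. Mbl2, C8b and Fgb lie lower in Vehicle Control than in Regular diet without overlap, C3 overlaps, and C3ar1, C5ar1 and F3 lie higher without overlap.

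Of 20 coagulation and fibrinolysis genes made by hepatocytes, 18 were called lower, beside 20.7% of all genes tested, and 19 had a fitted change below 0. Fgb, the beta chain of fibrinogen whose promoter is printed above, ranged from 46899.7 through 108746 to 207361 in Vehicle Control, against 496539, 286650.0, 228547, 283850.0 and 338672 in Regular diet. Vehicle Control replicate 6 was lowest and replicate 1 highest, and no mouse reached the Regular diet range of the deposited values (-1.55 ± 0.35, adjusted p = 0.00136, 2.92-fold lower). Fga fell by 1.69 and Fgg by 1.66 (adjusted p = 0.000267 and 0.000981), so all 3 chains were called. Per base of transcript, Fga, Fgb and Fgg had median shares of 34.8, 24.8 and 40.2% of their sum in Vehicle Control, against 38.1, 22.6 and 39.5% in Regular diet.

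Among the proteases, F7, factor VII, had the smallest adjusted p (3.12e-05). It ranged from 1245 through 1957 to 2939.6 in Vehicle Control, against 10937, 4864, 5019, 5539 and 5666 in Regular diet, with no overlap (-1.62 ± 0.25). F10 and Proz, its neighbours on chromosome 8 (factor X and protein Z), were at -1.43 and -1.23. The contact factors F12 and Klkb1 (plasma kallikrein) were at -1.58 and -1.57. Klkb1 was tight in Regular diet, at 19129.9, 20619.6, 20485, 20773 and 20086, and ranged from 3485 through 6556 to 14197 in Vehicle Control, so all 6 Vehicle Control mice were lower, though the gene model Gm45753 shares 2267 bases of its exons. F2, prothrombin, was at -1.21, F13b, the carrier subunit of factor XIII, at -1.17, F11 at -1.07, F9 at -1.02 and F5, the cofactor of factor X, at -0.89, all called. F11 lost its call without Regular diet replicate 3 or without any of Vehicle Control replicates 3, 4 and 6 (adjusted p up to 0.0646), and F5 without Regular diet replicate 5 (0.0518). Kng1, kininogen, did not pass (-0.77 ± 0.33, adjusted p = 0.0621), though it did without Vehicle Control replicate 1 or 2, and its reads could be shared with a near-identical Kng2.

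The inhibitors and the fibrinolytic genes fell beside the proteases that they restrain. Serpinc1, antithrombin, ranged from 25955 through 49181 to 79572 in Vehicle Control, against 191332, 119878, 117652, 133829 and 116704 in Regular diet. All 6 Vehicle Control mice lay below all 5 Regular diet mice (-1.46 ± 0.28, adjusted p = 0.000295). Its exons overlap 2942 bases of Zbtb37 on the opposite strand. Plg, plasminogen, fell by 1.57, Serpinf2, its product's inhibitor antiplasmin, by 1.24, Proc, the anticoagulant protein C, by 1.22, and Serpind1, heparin cofactor II, by 1.13. F2, F5, F9, F11, F13b, Proc, Proz, Serpind1 and Serpinf2 each lost the call under at least 1 of the other scalings. Pros1, protein S, the cofactor of protein C, was the exception. It ranged from 3224 through 3806 to 4484 in Vehicle Control, against 2953, 3858, 2971, 3881 and 3743 in Regular diet. The groups overlapped (0.15 ± 0.14, adjusted p = 0.382), and under both other scalings Pros1 was called higher.

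The macrophage-made members stood on the other side. C5ar1, a receptor for the anaphylatoxin C5a, ranged from 519 through 887 to 1209 in Vehicle Control, against 22.1, 34.1, 13.1, 8.26 and 42.8 in Regular diet. The lowest Vehicle Control mouse was far above the highest Regular diet mouse (5.24 ± 0.36, adjusted p = 5.57e-09, 37.9-fold higher). C3ar1, the C3a receptor, ranged from 1485 through 4094 to 7259 in Vehicle Control, against 174, 175, 112, 147 and 235 in Regular diet. It was 21.1-fold higher without overlap (4.40 ± 0.37, adjusted p = 4.41e-08). F13a1, the catalytic subunit of factor XIII, which crosslinks fibrin, ranged from 63.6 through 116 to 239 in Vehicle Control, against 7.37, 26.2, 10.5, 15.1 and 13.7 in Regular diet (2.94 ± 0.39, adjusted p = 7.13e-06). Its carrier F13b, made by hepatocytes, was lower, as given above. In Regular diet 1 fragment corresponded to a value of 0.88 to 2.46, estimated from the steps between low values. The F13a1 and C5ar1 values there thus rested on few fragments, which makes their fold changes imprecise.

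The 3 chains of C1q, which binds antibody and dying cells, were higher too, with overlap. C1qb ranged from 3697 through 13647 to 20834 in Vehicle Control, against 7087, 2438, 1215, 1940.3 and 2973 in Regular diet (2.10 ± 0.42, adjusted p = 0.000444). Vehicle Control replicate 1 was lowest and lay inside the Regular diet range, whose top was replicate 1. C1qa was at 1.50 and C1qc at 1.49 (adjusted p = 0.0134 and 0.0144). Per base of transcript, C1qb made up a median of 43.3% of the summed chains in Vehicle Control and 34.7% in Regular diet. Cfp, properdin, which stabilises the alternative convertase, did not pass: it ranged from 687 through 1562 to 2241 in Vehicle Control, against 2518, 1229.7, 602, 1283 and 1548 in Regular diet (0.10 ± 0.33, adjusted p = 0.816). F3, the initiator of coagulation, ranged from 458 through 671 to 924 in Vehicle Control, against 182, 181, 238, 195 and 202 in Regular diet, without overlap (1.72 ± 0.19, adjusted p = 1.03e-06).

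Per kilobase of transcript the order of abundance differed between the groups. Fgg, Fga, C3, Fgb and Kng1 had the highest medians in Regular diet, at 131835, 127307, 86726, 75236 and 56608 normalized counts per kilobase, while in Vehicle Control C3 came first at 60448, ahead of Fgg at 49076 and Fga at 44562. Within single mice, C3 was above Fga in 6 of 6 Vehicle Control mice and in 0 of 5 Regular diet mice. C3 was above Fgg in 4 of 6 Vehicle Control mice and in 0 of 5 Regular diet mice, so that the order of C3 and Fgg in Vehicle Control was mixed. C1qb stood at a median of 12543 per kilobase in Vehicle Control and 2241 in Regular diet. The lowest medians in Regular diet were those of C3ar1 at 40.5, C5ar1 at 8.70 and F13a1 at 3.48.

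**Figure D3:**
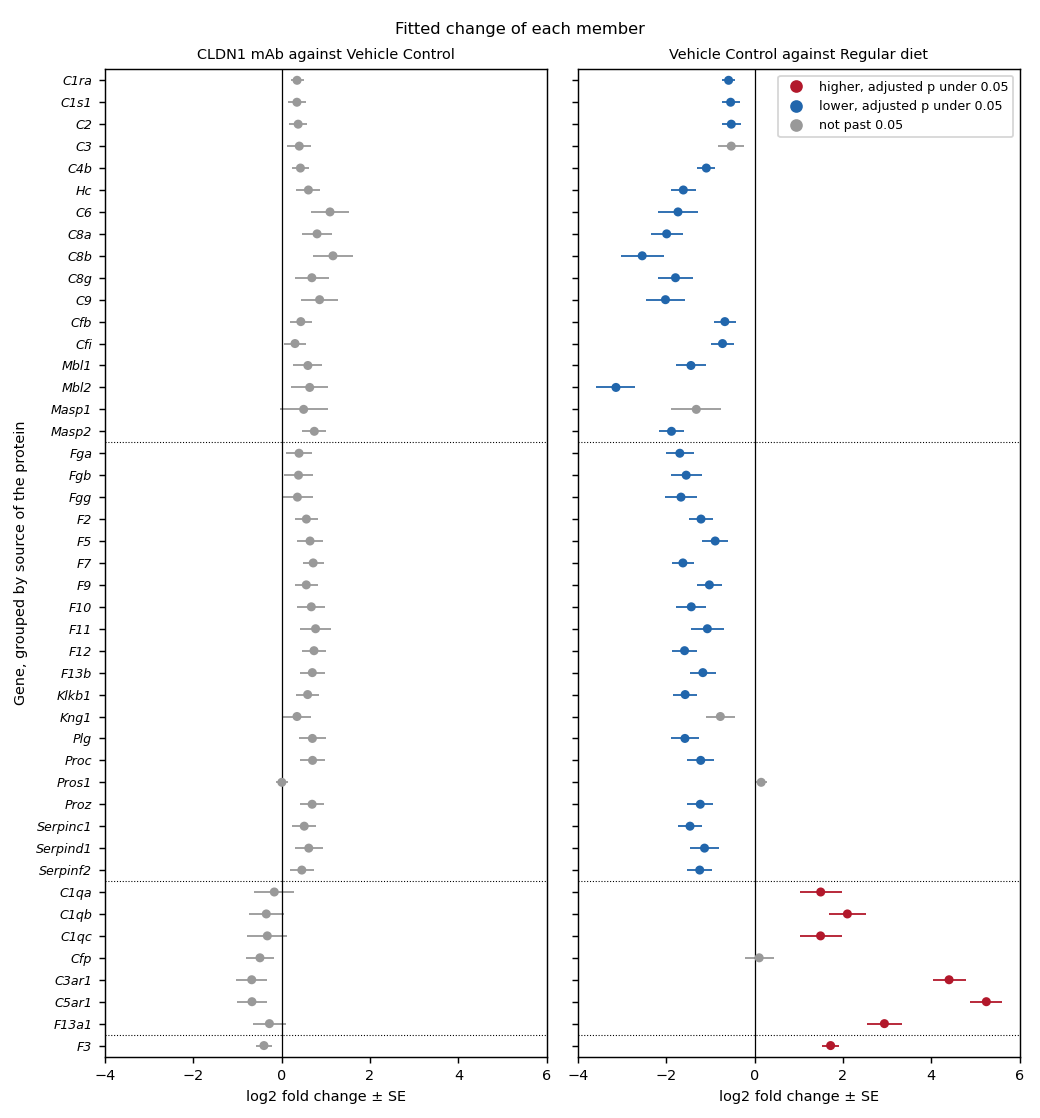
Each point is the fitted log2 fold change of a member with its SE, CLDN1 mAb against Vehicle Control on the left and Vehicle Control against Regular diet on the right; colour marks an adjusted p under 0.05. On the right 33 hepatocyte-made members lie below 0 in blue and 6 macrophage-made members and F3 above 0 in red. On the left no member is coloured.

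The markers of both cell types moved with these groups. Beside the counts below, 29.8% of all genes tested were higher and 20.7% lower in Vehicle Control than in Regular diet. Of 10 hepatocyte markers, without Alb and Trf as above, 9 were lower in Vehicle Control than in Regular diet and 0 higher (median -1.66), and the marker sum ranged from 432461 to 1683420.0 in Vehicle Control, against 1951600.0 to 4352440.0 in Regular diet. Of 10 macrophage markers, 9 were higher and 0 lower (median 3.21), with a sum of 68352 to 182880.0 in Vehicle Control, against 8093 to 22766 in Regular diet. All 8 markers of monocyte-derived and lipid-associated macrophages were higher, with a sum of 66330 to 248042 in Vehicle Control against 4252 to 14459.5 in Regular diet. The lists are not separate, since Spp1 is on this list and the cholangiocyte list. Itgax of this list and Vsig4 of the Kupffer cell list are also among the further complement genes below. Of 7 Kupffer cell markers 5 were lower and 0 higher, with a sum of 5207 to 12136 in Vehicle Control against 7995 to 23023 in Regular diet. Of 5 neutrophil markers tested 3 were higher, of 5 platelet markers 2, of 8 stellate cell and fibroblast markers 7 and of 6 cholangiocyte markers 6, with 0 lower in these 4 lists. Of 7 endothelial markers 2 were lower (Kdr and Clec4g) and 0 higher, with a sum of 2469 to 13041 in Vehicle Control against 9582 to 12841 in Regular diet. The platelet and endothelial counts lay near the shares of all genes. The platelet median log2 fold change was -0.30, with 3 of 5 markers below 0. Of 5 plasma cell and B cell markers 0 passed, with a sum of 408 to 11769.7 in Vehicle Control against 317 to 706 in Regular diet. The neutrophil sum (4 of 6 markers, Ly6g and Mpo being at 0 in some libraries) was 385 to 2081 in Vehicle Control and 52.5 to 513 in Regular diet, and the platelet sum (5 of 7, without Gp6 and Treml1 for the same reason) was 217 to 809 and 207 to 563. The part of these cell types in the results was not tested.

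The calls depended on how libraries were scaled. Overlap between groups, given above and below, was read from the deposited values only and was not examined under the other scalings. With the same total per library the median of all genes moved to 0.65, from 0.04 as deposited, and the split of all calls moved to 9369 higher and 1264 lower, from 5547 and 3853. Of the hepatocyte-made members 22 were then lower and 1 higher. After quantile normalization (median of all genes -0.13, with 4447 genes higher and 5223 lower) 19 were lower and 1 higher. Relative to the median of all genes, the hepatocyte-made median was -1.36 as deposited, -1.35 with the same total and -0.38 after quantile normalization, and the macrophage-made median was 2.06, 2.07 and 2.27. Across the 18 alternative settings, 18 hepatocyte-made members were called lower throughout: Hc, C6, C8a, C8b, C8g, C9, Mbl1, Mbl2, Masp2, Fga, Fgb, Fgg, F7, F10, F12, Klkb1, Plg and Serpinc1. The 6 macrophage-made calls and F3 held in all 18. With only the 2 groups compared in the fit, 27 hepatocyte-made members were lower.

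**Figure D4:**
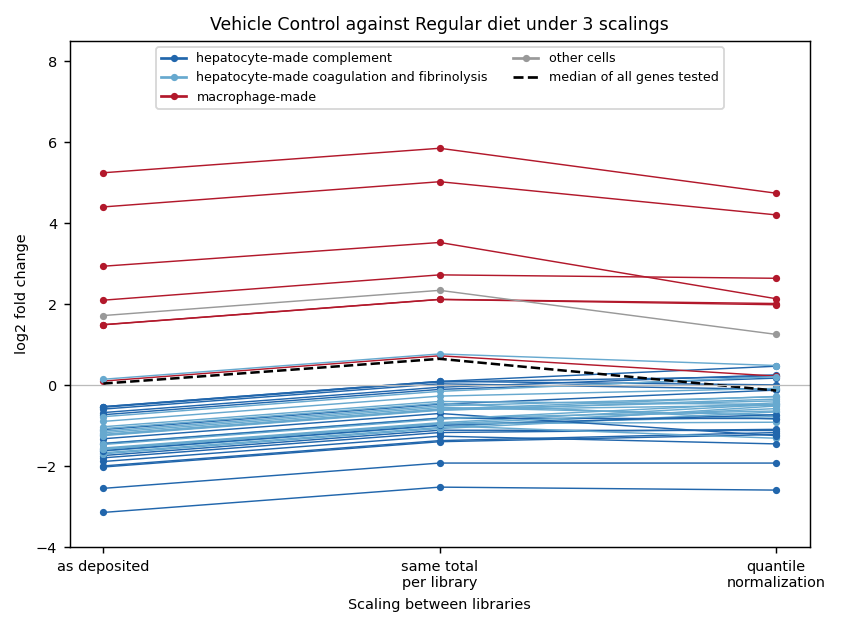
Lines are members, with the log2 fold change of Vehicle Control against Regular diet on the y axis and the scaling of libraries on the x axis; the dashed line is the median of all genes tested. Mbl2 and C8b stay lowest, C5ar1 and C3ar1 stay highest, and C1s1, C2 and C3 cross 0 under the other scalings.

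CLDN1 mAb was compared with Vehicle Control to read the effect of the antibody on these genes. No member passed, and 0% of all genes tested were called, with a smallest adjusted p of 0.659, which does not show that the groups did not differ. At an unadjusted p under 0.05 there were 18 of 37 hepatocyte-made members higher and 0 lower, 0 of 7 macrophage-made members, and F3 lower, beside 4.32% of all genes higher and 3.15% lower. The fitted changes of all 37 hepatocyte-made members were above 0 as deposited, with a median of 0.59 against -0.05 for all genes, while C3, Kng1 and Pros1 were below 0 after quantile normalization and Pros1 with the same total per library. Those of the 7 macrophage-made members were below 0, with a median of -0.35. Members are not independent observations, since all were read in the same mice. For 33 of the 37 hepatocyte-made members Vehicle Control replicates 3, 4 and 6 lay below replicates 1, 2 and 5. The counts of members above therefore do not measure evidence for an effect of the antibody. With 1 library left out the hepatocyte-made median was 0.40 to 0.73, and the macrophage-made median was -0.70 without Vehicle Control replicate 1, -0.23 without replicate 4 and -0.22 without replicate 6. With the same total per library the medians were 0.41 and -0.53, and after quantile normalization 0.43 and -0.60. All 45 members overlapped between the groups, where 0.0644% of all genes lay higher and 0.258% lower without overlap.

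C8b had the largest fitted change. It ranged from 6848 through 10192 to 15859 in CLDN1 mAb, against 1568 through 5636 to 14603 in Vehicle Control (1.16 ± 0.46, adjusted p = 0.659). CLDN1 mAb replicate 2 lay just above the Vehicle Control range and the other 5 inside it. C6 ranged from 9874 through 12711 to 19816 in CLDN1 mAb, against 2306 through 7174 to 19806 in Vehicle Control (1.09 ± 0.43), with nearly the same highest value in both groups. F7 had the smallest unadjusted p of the members, 0.00725, and ranged from 2591 through 3279 to 4368 in CLDN1 mAb, against 1245 through 1957 to 2939.6 in Vehicle Control (0.71 ± 0.24, adjusted p = 0.659), so that its groups overlapped only between 2591 and 2939.6. Mbl2 (0.63 ± 0.42), Fgb (0.38 ± 0.34) and C3 (0.40 ± 0.28) were further from the threshold, and Pros1 was at 0.00 ± 0.13.

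C3ar1 ranged from 1602 through 2127 to 3049 in CLDN1 mAb, against 1485 through 4094 to 7259 in Vehicle Control (-0.68 ± 0.35, adjusted p = 0.664). Its lowest mice were alike, and the CLDN1 mAb group lacked the values of 5844 to 7259 of Vehicle Control replicates 3, 4 and 6. C5ar1 was at -0.67 ± 0.35 (adjusted p = 0.661), C1qb at -0.35 ± 0.40 and F3 at -0.40 ± 0.18 (adjusted p = 0.659). The labels also give each library a code. Within codes 25 to 30 (3 mice a group) the hepatocyte-made median was 0.34 and the macrophage-made median 0.11, and within codes 36 to 42 (3 mice a group) they were 0.69 and -0.89. No member passed with the code block as a term. The 5 Regular diet libraries held codes 31 to 35 and no other library did. Against Regular diet, code and group therefore cannot be told apart.

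The Vehicle Control mice differed more among themselves. Replicates 3, 4 and 6 were among the 3 lowest of their group for 36, 35 and 35 of the 37 hepatocyte-made members, and each among the 3 highest for 7 of the 7 macrophage-made members. Replicate 6 was the lowest for 27 hepatocyte-made members, and replicate 1 the highest for 25. The median log2 difference of the hepatocyte-made members from the Regular diet mean was -1.01 to -0.46 over the CLDN1 mAb mice, against -2.29 to -0.54 over the Vehicle Control mice. For the macrophage-made members it was 1.53 to 1.91 and 0.50 to 2.996. The SD of log2 values was smaller in CLDN1 mAb than in Vehicle Control for 35 of 37 hepatocyte-made members (94.6%) and for 7 of 7 macrophage-made members, beside 66.9% of all genes. The median SD was 0.29 in CLDN1 mAb and 0.70 in Vehicle Control for the hepatocyte-made members, and 0.33 and 0.43 for all genes. These are descriptions without a test.

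The marker sums followed the same mice. The hepatocyte marker sum was 646566, 582433 and 432461 in Vehicle Control replicates 3, 4 and 6, and 1350290.0, 1683420.0 and 1186600.0 in replicates 1, 2 and 5, while the CLDN1 mAb mice ranged from 995281 to 1692310.0. The macrophage marker sum was 182880.0, 138446 and 172021 in Vehicle Control replicates 3, 4 and 6, and 68352, 86557 and 103288 in replicates 1, 2 and 5, with 89764 to 147272 in CLDN1 mAb. None of the 10 hepatocyte markers and 10 macrophage markers tested passed between CLDN1 mAb and Vehicle Control. Their part in the spread was not tested.

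**Figure D5:**
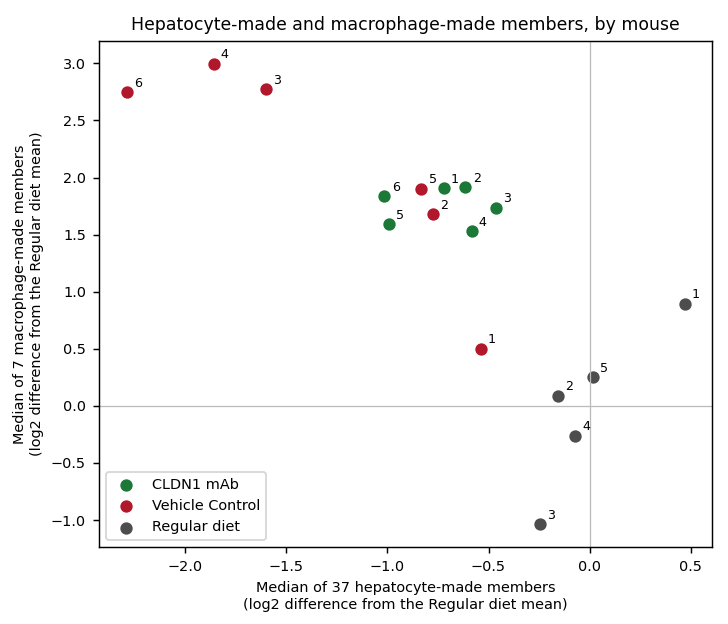
Each point is a mouse, labelled with its replicate number, placed by the median log2 difference of the 37 hepatocyte-made members (x axis) and the 7 macrophage-made members (y axis) from the Regular diet mean. Vehicle Control replicates 3, 4 and 6 lie at the upper left, the 6 CLDN1 mAb mice lie close together, and Vehicle Control replicate 1 is nearest to Regular diet.

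CLDN1 mAb was also compared with Regular diet, using the same Regular diet mice as the first comparison, so the values below are not independent of it. Of 37 hepatocyte-made members 17 were lower and 0 higher, 8 of them complement and 9 coagulation genes, beside 14.1% of all genes lower and 24.8% higher (38.9% in either direction), and the median change was -0.76. Of 7 macrophage-made members 5 were higher, and so was F3 (1.32 ± 0.19, adjusted p = 2.76e-05). The groups did not overlap for 20 hepatocyte-made members, all lower (10.4% of all genes), and for 4 macrophage-made members, all higher (18.6%).

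Mbl2 again had the largest decrease. It ranged from 2909 through 4505 to 5107 in CLDN1 mAb, against 17156 to 42273 in Regular diet, without overlap (-2.50 ± 0.44, adjusted p = 0.000198). C8b was at -1.38, Fgg at -1.31, Fga at -1.30, C8a at -1.19, Fgb at -1.17, C9 at -1.16, Masp2 at -1.14 and C8g at -1.11, all called lower. F7, at -0.91 ± 0.25 (adjusted p = 0.00708), was called as well. Mbl2, Masp2 and F7 were the 3 hepatocyte-made members called in all 18 alternative settings. C4b, C8b, C8g, C9, F12, Plg and Serpinf2 each lost the call when 1 library was left out, between them each of the 6 CLDN1 mAb mice and Regular diet replicates 1, 2, 4 and 5. F2, Mbl1 and F10, called in Vehicle Control, were at -0.65, -0.85 and -0.76 with adjusted p of 0.0637, 0.0597 and 0.0826. With the same total per library 7 hepatocyte-made members were lower and 1 higher, after quantile normalization 3 were lower, and without CLDN1 mAb replicate 5 there were 11. With only these 2 groups in the fit 24 were lower, F2 and Mbl1 among them, and 6 macrophage-made members were higher. The calls over all genes were split into 4613 higher and 2634 lower as deposited, 7063 and 831 with the same total, and 3553 and 3725 after quantile normalization. The hepatocyte-made median was -0.76 as deposited, -0.32 with the same total and -0.12 after quantile normalization. Relative to the median of all genes it was -0.77, -0.75 and -0.0013, so that after quantile normalization it was close to that of all genes, and the macrophage-made median was 1.75, 1.76 and 2.12 relative to all genes.

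C5ar1 was higher by 4.57 ± 0.36 (adjusted p = 3.6e-08), with 385 through 486 to 747 in CLDN1 mAb against 8.26 to 42.8 in Regular diet. C3ar1 was higher by 3.72 ± 0.37, F13a1 by 2.66 ± 0.39 and C1qb by 1.75 ± 0.42, and none of these 4 overlapped. C1qa was at 1.33 (adjusted p = 0.0327) and lost the call under 8 of the 18 alternatives, among them without Regular diet replicate 2, 3, 4 or 5 and without CLDN1 mAb replicate 1 or 6, C1qc was at 1.17 (adjusted p = 0.0606), and Cfp was at -0.39 (adjusted p = 0.377).

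Further genes of the same pathways, read from lists, were compared between Vehicle Control and Regular diet. Of 24 further complement genes tested (26 listed), 4 were higher (16.7%) and 11 lower (45.8%), beside 29.8% and 20.7% of all genes. Itgax, Itgam and Itgb2, the chains of the integrin complement receptors on myeloid cells, were higher by 6.40, 4.88 and 3.86, with Itgax at a mean of 5509 ± 2972 in Vehicle Control against 61.2 ± 22.5 in Regular diet (SD, n = 6 and 5). C4a, Colec10 and Fcna, a C4 paralogue, a collectin and a ficolin, were lower, at -2.52, -2.96 and -2.25. Of 25 further coagulation and fibrinolysis genes tested (26 listed), 12 were higher (48.0%) and 5 lower, a share close to the 20.7% of all genes called lower. Anxa2, a cell surface receptor for plasminogen, was higher by 4.08, Plau, urokinase, by 4.03 and Procr, the protein C receptor, by 3.24. Tfpi2, a protease inhibitor, was lower at -1.76, Cpb2, which slows fibrin breakdown, at -1.35, and Habp2, a plasma protease, at -1.02.

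Several of the hepatocyte-made clotting factors (F2, F7, F9, F10, Proc, Pros1 and Proz) need gamma-carboxylation by a vitamin K cycle. Of its 5 genes tested, Ggcx, the carboxylase, and Vkorc1, the reductase, were lower, at -1.23 and -1.06, and Calu, calumenin, was higher by 0.38. Of 12 liver transcription factors and acute phase signalling genes tested (13 listed), 6 were lower (50.0%) and 1 higher (8.33%), beside the same 20.7% and 29.8% of all genes. Hnf4a and Cebpa, which drive hepatocyte genes, were lower, at -1.15 and -0.94, and Osmr, the oncostatin M receptor, was higher by 2.46. Between CLDN1 mAb and Vehicle Control 0 genes of these 4 lists passed, and against Regular diet CLDN1 mAb had 3 higher and 8 lower, 10 and 3, 1 and 1, and 1 and 4, in the order of the lists above, beside 24.8% of all genes higher and 14.1% lower.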

How the data were processed

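Normalized counts per gene (a signal that is no longer a raw count) were made by the authors with cuffnorm of Cufflinks 2.2.1, and the build was mm10, both per the submitters' processing notes. Which aligner, annotation release, strand setting and scaling option they used is not given in the sources used here. Replicates were separate mice per the labels. The table held 52545 genes, 52398 with a symbol in GENCODE (99.7%), and 18624 reached a value of 10 in no fewer than 5 libraries. These were tested as log2(value + 1) with limma-trend (limma 3.58.1, R 4.3.3) over all 17 libraries, group as the only term, two-sided, adjusted by Benjamini-Hochberg with a threshold of 0.05. Fold changes on this scale understate those of low genes. The procedure was also run on simulated data, from which no value is given. Dividing totals by the value of 1 fragment, read from the steps between low values, gave an estimated 27.7 to 59.5 M fragments per library. Of values up to 20 fragments, 97.8 to 98.3% lay within 0.05 of a whole number, but smaller fractional values occur and no count test was run. Levels per kilobase used transcript lengths. All 45 members were named, and of each further list up to 3 genes with the smallest p in each direction; 1 of these is not reported here. The members, lists and tests were chosen with earlier results of these data known. Alternatives covered the pseudocount, filter, scaling, libraries in the fit, replicate number and each library left out. Library codes were used only for CLDN1 mAb against Vehicle Control.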

Additional observations from a re-analysis of the deposited data

Results flagged for a closer look

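In groups of this size about 1 in 20 checks stands out by chance. Of 135 combinations of a member and a group, 16 had a highest or lowest mouse set apart from the rest by a gap that was large for the range of the group, and 15 of these were Regular diet replicate 1. That mouse was the highest of its group for C2 (17157 normalized counts), C6 (31936), C8g (67448), Masp2 (18208), F2 (142129), F7 (10937), F10 (75172), F12 (62383), Kng1 (212933), Proc (66343), Serpinc1 (191332) and Serpind1 (54613). It was the lowest for Masp1 (454), F5 (13042) and F13b (6031). The remaining one was Masp1 in CLDN1 mAb replicate 1, at 411 against 1385 to 2489 in the other 5 mice of that group. Values of both libraries leaned with gene length, as did those of other libraries with a weaker rho, some of them in the opposite direction. The part of that lean in these values was not tested.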

How the results depend on the processing

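The count of 33 hepatocyte-made members lower in Vehicle Control than in Regular diet was 28 to 34 with 1 library left out, 22 with the same total per library and 19 after quantile normalization, with 1 (Pros1) higher under each of these scalings. For CLDN1 mAb against Regular diet the count of 17 was 11 to 17 with 1 library left out (11 without CLDN1 mAb replicate 5), 7 with the same total and 3 after quantile normalization, with 1 (Pros1) higher with the same total. With only the 2 groups compared in the fit, the counts were 27 for Vehicle Control and 24 for CLDN1 mAb. The gap between 33 and 17 thus depended on which libraries shared the estimate of the spread. For CLDN1 mAb against Vehicle Control 0 members passed in any alternative. Both pseudocounts changed 0 calls. The cause of each change below was not tested. With the same total, Vehicle Control against Regular diet turned positive for C1ra (0.037), C1s1 (0.083), C2 (0.10) and C3 (0.10), and CLDN1 mAb against Regular diet for C1ra (0.20), C1s1 (0.24), C2 (0.29), C3 (0.31), Cfb (0.20), Cfi (0.017), F5 (0.19), F11 (0.14), Kng1 (0.013) and Cfp (0.054), while Pros1 turned to -0.18 in CLDN1 mAb against Vehicle Control. After quantile normalization, Vehicle Control against Regular diet turned positive for C1s1 (0.22), C2 (0.010), C3 (0.47), Cfb (0.26), Cfi (0.18) and Kng1 (0.22). CLDN1 mAb against Regular diet did so for C1ra (0.11), C1s1 (0.35), C2 (0.24), C3 (0.42), Cfb (0.30), Cfi (0.23), F5 (0.36), Kng1 (0.19), Proc (0.12), Proz (0.034) and Serpind1 (0.14). CLDN1 mAb against Vehicle Control turned negative for C3 (-0.047), Kng1 (-0.025) and Pros1 (-0.10). Within codes 25 to 30 that comparison was -0.052 for Pros1, 0.42 for C1qa, 0.20 for C1qb, 0.18 for C1qc and 0.11 for Cfp. With 1 library left out, the ranges crossed 0 for Cfp in Vehicle Control against Regular diet (-0.17 to 0.34), for Pros1 (-0.046 to 0.085) and C1qa (-0.58 to 0.048) in CLDN1 mAb against Vehicle Control, and for C2 in CLDN1 mAb against Regular diet (-0.26 to 0.071). Regular diet replicate 1 and CLDN1 mAb replicate 1, with the most negative rho with gene length, were also left out together, chosen after seeing the data. This gave 32 and 13 hepatocyte-made members lower against Regular diet in Vehicle Control and CLDN1 mAb, with C2 at 0.094 in CLDN1 mAb. Most same-numbered mice did not deviate together (correlations of -0.34 to 0.66, with 0 of 5, 1 of 6 and 1 of 5 best with their own number). The exceptions were CLDN1 mAb 6 with Vehicle Control 6 (0.66) and CLDN1 mAb 1 with Regular diet 1 (0.59). The numbers were not taken as a pairing. With the replicate block 31, 0 and 13 hepatocyte-made and 6, 0 and 4 macrophage-made members were called. No count test was run, since fractional values remained. The counting error of the low F13a1 and C5ar1 values of Regular diet was thus not estimated.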
